A study of Homo sapiens with 12 samples.

Results

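DNA repair and the DNA damage checkpoint were followed as a set of 52 genes in A2058 cells, an established BRAF-mutant human melanoma line, 24 h after drug treatment. The members were matched by gene symbol, from the families of recombination, crosslink, end joining, excision and mismatch repair and from the checkpoint. This choice was made with earlier results of these data known. The members were 52 of 14580 genes with a symbol on the array and were covered by 53 probe sets, of which the brightest per gene was used. The 12 arrays formed 4 groups of 3. DMSO arrays held cells given only the solvent. DT arrays held cells given dabrafenib (100 nM), a RAF kinase inhibitor, with trametinib (10 nM), a MEK inhibitor. E arrays held cells given entinostat (1 µM), an inhibitor of class I histone deacetylases, and DTE arrays held cells given all 3 drugs at those doses. The titles call the arrays biological replicates while the series design calls them technical triplicates, so p-values cover the spread of the 3 arrays in a group, which could be technical alone.

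Cells repair DNA by several routes that share signalling. Double-strand breaks are joined end to end or copied from the sister chromatid by homologous recombination, damaged bases are cut out and replaced by excision repair, and mispaired bases left by replication are removed by mismatch repair. The checkpoint kinases ATR and ATM sense the damage and, through CHEK1 and CHEK2, hold the cell cycle while repair proceeds. Many of these genes are transcribed most in dividing cells, and in melanoma with mutant BRAF the MAPK pathway drives division.

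Values are log2 intensities of a probe set, and a change is a difference between group means on that scale. Genes were called at a limma adjusted p under 0.05 (Benjamini-Hochberg over all 14580 genes). The array medians over all genes ranged from 4.58 to 4.80 in DMSO, 4.40 to 4.60 in DT, 4.87 to 4.90 in E and 4.61 to 4.69 in DTE, so each change is given as deposited and, where it alters the call, after quantile normalization, which sets all arrays to one distribution. A log2 value that follows an adjusted p in the same parentheses is the change after quantile normalization, where the call also held unless stated otherwise. The ERK target DUSP6 stood at 8.72 ± 0.21 under DMSO (mean ± SD, n = 3), 4.25 ± 0.20 under DT, 9.24 ± 0.15 under E and 3.88 ± 0.48 under DTE, and all 7 measured ERK targets of a short check list were called lower in DT and in DTE. Of 9 measured melanocyte lineage markers, 0 lay below the lower quartile of genes in any group, and PMEL, MLANA and SOX10 stood at 8.79 ± 0.02, 4.45 ± 0.13 and 8.45 ± 0.02 under DMSO. The summed intensity of 3 fibroblast markers was 166 to 193 in DMSO, 185 to 246 in DT, 301 to 359 in E and 439 to 600.5 in DTE; LUM made up most of it, DCN stayed below the lower quartile in every group, and the part of this shift in the repair results was not tested. The sums of 6 epithelial markers (54.3 to 70.0 in DMSO, 60.4 to 70.2 in DT, 75.1 to 77.1 in E and 62.0 to 73.2 in DTE) and 3 blood cell markers (23.5 to 27.0, 16.3 to 21.1, 24.8 to 30.5 and 21.1 to 25.1) were low, with CD53 at 2.19 ± 0.20 under DMSO. In bulk RNA, fewer cells of one kind and less RNA per cell cannot be told apart.

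As deposited, the repair genes fell far more often than they rose against DMSO. The checkpoint effector kinase CHEK1 and the uracil glycosylase UNG were 2.08-fold and 2.15-fold lower with all 3 drugs. In DT against DMSO 29 of the 52 fell as deposited (55.8%), where 24.1% of all genes did, and 1 rose, where 3.23% of all genes did. In E against DMSO 7 fell (13.5%, against 3.54% of all genes) and 0 rose (12.5% of all genes; 1 member was higher at an unadjusted p under 0.05). In DTE against DMSO 25 fell (48.1%, against 22.5%) and 2 rose (3.85%, against 9.64%). These 3 comparisons share the DMSO arrays. As deposited 14 of the 52 (26.9%, against 48.8% of all genes) were called in none of the 6 comparisons: BRIP1, FANCD2OS, MDC1, MGMT, MLH3, NEIL2, PARP2, PMS2, RAD17, RAD50, RAD51AP2, RAD52, RAD54B and TP53BP1. After quantile normalization 25 were called in none (48.1%, against 57% of all genes), and after median centring 15 (28.8%, against 49.6%).

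Under another scaling the count in DT shrank and the count in E grew. As deposited the median change in DT was -0.31 over the 7290 genes above the median level and -0.07 over the others. Of those 7290 genes 42.4% fell, and among the 42 members there 66.7% did. In E the same shares were 6.23% of those genes and 16.7% of those members, and in DTE 39.3% and 52.4%. After quantile normalization 4 members fell in DT (7.69%, against 7.86% of all genes) and 3 rose (5.77%, against 8.55%), whereas 13 fell in E (25%, against 8.45% of all genes; 0 rose, against 9.67%) and 17 in DTE (32.7%, against 14.2%), where 2 rose (3.85%, against 14.2%). Median centring gave 13 lower in DT (25%, against 12% of all genes) and 2 higher (3.85%, against 8.08%), 20 lower in E (38.5%, against 16.3%) and 0 higher (7.53% of all genes), and 28 lower in DTE (53.8%, against 23.1%) and 2 higher (3.85%, against 11%). The median change of the members in DT was -0.40 as deposited, where that of all genes was -0.17, and -0.11 after quantile normalization, where that of all genes was 0.00. In E it was -0.07 (all genes 0.07) and -0.15 (all genes -0.03), and in DTE it was -0.34 (all genes -0.11) and -0.10 (all genes -0.04). Without DMSO replicate 2 the count of 29 in DT became 18, and leaving out DT replicate 1 made it 19. The count of 2 rising in DTE was 1 without DMSO replicate 1, DMSO replicate 3, DTE replicate 2 or DTE replicate 3, and 1 member rose in E without DTE replicate 3. Among the DTE arrays replicate 3 stood highest for the members as a set. Their median level was 6.36, 6.41 and 6.70 in DTE replicates 1, 2 and 3, where the medians over all genes were 4.61, 4.69 and 4.68.

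**Figure D1:**
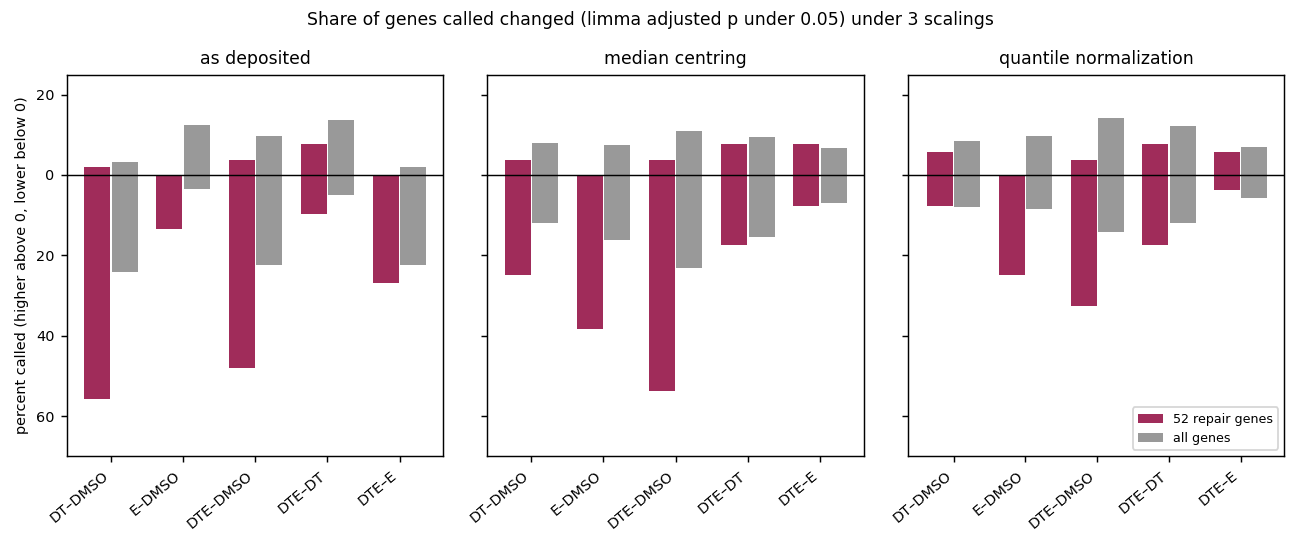
Percent of the 52 repair genes and of all 14580 genes called higher (above 0) or lower (below 0) at a limma adjusted p under 0.05, in 5 comparisons and under 3 scalings. The members called lower in DT against DMSO go from 55.8% as deposited to 7.69% after quantile normalization, while those called lower in E against DMSO go from 13.5% to 25%.

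Among the 10 checkpoint and damage signalling genes, 7 fell in DT, 2 in E and 6 in DTE as deposited (70%, 20% and 60%, against 24.1%, 3.54% and 22.5% of all genes). In each 0 rose, where 3.23%, 12.5% and 9.64% of all genes did. After quantile normalization 1 fell and 1 rose in DT, 4 fell in E and 5 fell in DTE (7.86%, 8.45% and 14.2% of all genes fell, and 8.55% rose in DT). CHEK1, the effector kinase of the replication checkpoint, showed the largest fall of any member in DT. Its 3 arrays read 7.58, 7.63 and 7.62 under DMSO, 6.62, 6.74 and 6.57 under DT, 6.76, 6.87 and 6.65 under E and 6.29, 6.54 and 6.83 under DTE. Every treated array lay below every DMSO array, and the 3 treated groups overlapped one another. The change was -0.97 in DT (SE 0.13, limma adjusted p = 2.9e-05; 1.96-fold lower), -0.85 in E (SE 0.13, adjusted p = 0.00016; 1.8-fold lower) and -1.05 in DTE (SE 0.13, adjusted p = 8.7e-06; 2.08-fold lower). All 3 calls held after quantile normalization (-0.58, -0.91 and -0.79) and without any 1 array.

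CLSPN encodes claspin, the adaptor through which ATR activates CHEK1. Its arrays read 7.79, 7.99 and 8.08 under DMSO, 7.34, 7.67 and 7.52 under DT, 7.72, 7.58 and 7.65 under E and 7.06, 7.15 and 7.19 under DTE. All 3 DTE arrays lay below every other array. CLSPN fell by 0.82 in DTE (SE 0.12, adjusted p = 5.3e-05; -0.54 after quantile normalization) and stood at -0.30 in E (adjusted p = 0.11; -0.32 and called lower after quantile normalization). Its fall in DT (-0.44, adjusted p = 0.011) was not called after quantile normalization (-0.06) or without DT replicate 1 (-0.36). TOPBP1, which encodes an activator of ATR, read 7.69, 7.88 and 7.74 under DMSO, 7.03, 7.42 and 7.18 under DT, 7.44, 7.57 and 7.47 under E and 6.82, 7.05 and 7.26 under DTE. No treated array reached the lowest DMSO array. It fell by 0.73 in DTE (adjusted p = 0.00046; -0.46 after quantile normalization) and by 0.56 in DT (-0.19 and not called after quantile normalization), and stood at -0.27 in E (adjusted p = 0.21; -0.31 and called lower after quantile normalization).

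RAD1 encodes a subunit of the ring-shaped checkpoint clamp. It read 7.24, 7.47 and 7.41 under DMSO, 6.75, 7.01 and 6.97 under DT, 6.92, 6.87 and 6.92 under E and 6.60, 6.73 and 7.04 under DTE, with all treated arrays below DMSO. It fell by 0.47 in E (SE 0.13, adjusted p = 0.018; -0.52 after quantile normalization) and by 0.58 in DTE (adjusted p = 0.002; -0.32). The call in E was lost without DMSO replicate 2 (-0.42), DMSO replicate 3 (-0.45) or E replicate 2 (-0.45). In DT it fell by 0.46 (adjusted p = 0.012), a call lost after quantile normalization (-0.10) and without DMSO replicate 2 (-0.41) or DT replicate 1 (-0.38). RAD17, whose product loads that clamp, stood at -0.20, 0.08 and 0.02 in DT, E and DTE and was called in none.

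The upstream kinase gene ATR read 6.52, 7.01 and 6.58 under DMSO, 6.11, 6.35 and 6.04 under DT, 6.53, 6.82 and 6.63 under E and 6.21, 6.35 and 6.53 under DTE. The DT arrays lay below DMSO, while the E arrays lay within the DMSO range. Its fall of 0.54 in DT (adjusted p = 0.01) was lost after quantile normalization (-0.18) and without DMSO replicate 2 (-0.39) or DT replicate 3 (-0.48). WEE1, the kinase that restrains CDK1 before mitosis, read 7.48, 7.83 and 7.75 under DMSO, 6.93, 7.17 and 7.07 under DT, 7.71, 7.77 and 7.78 under E and 6.87, 7.39 and 7.45 under DTE. It fell by 0.63 in DT (adjusted p = 0.0041) and by 0.45 in DTE (adjusted p = 0.028), neither of which was called after quantile normalization (-0.26 and -0.17), and stood at 0.07 in E. The WEE1 call in DTE was also lost without DMSO replicate 2 (-0.37), DMSO replicate 3 (-0.42) or DTE replicate 1 (-0.26).

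CHEK2, the effector kinase of ATM, read 4.79, 5.11 and 4.67 under DMSO, 4.33, 4.62 and 4.36 under DT, 4.82, 4.87 and 4.78 under E and 4.55, 4.53 and 4.44 under DTE. It fell by 0.42 in DT (adjusted p = 0.022; -0.21 and not called after quantile normalization) and by 0.35 in DTE (adjusted p = 0.048; -0.32 and called). The call in DT was lost without DMSO replicate 2 (-0.29), DT replicate 1 (-0.36) or DT replicate 3 (-0.38), and the call in DTE held in the 2 fits without DMSO replicate 3 or DT replicate 2 and was lost in the other 10. The scaffold genes had no call as deposited. MDC1, which binds marked chromatin at breaks, read 7.64, 7.76 and 7.46 under DMSO, 7.22, 7.43 and 7.33 under DT, 7.72, 7.69 and 7.74 under E and 7.34, 7.47 and 7.49 under DTE, with changes of -0.29, 0.10 and -0.19. TP53BP1, which favours end joining, read 6.68, 6.67 and 6.53 under DMSO, 6.46, 6.90 and 6.61 under DT, 6.74, 6.85 and 6.77 under E and 6.54, 6.67 and 6.66 under DTE, with changes of 0.03, 0.17 and 0.00. After quantile normalization TP53BP1 was called higher in DT (0.39, adjusted p = 0.0071).

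**Figure D2:**
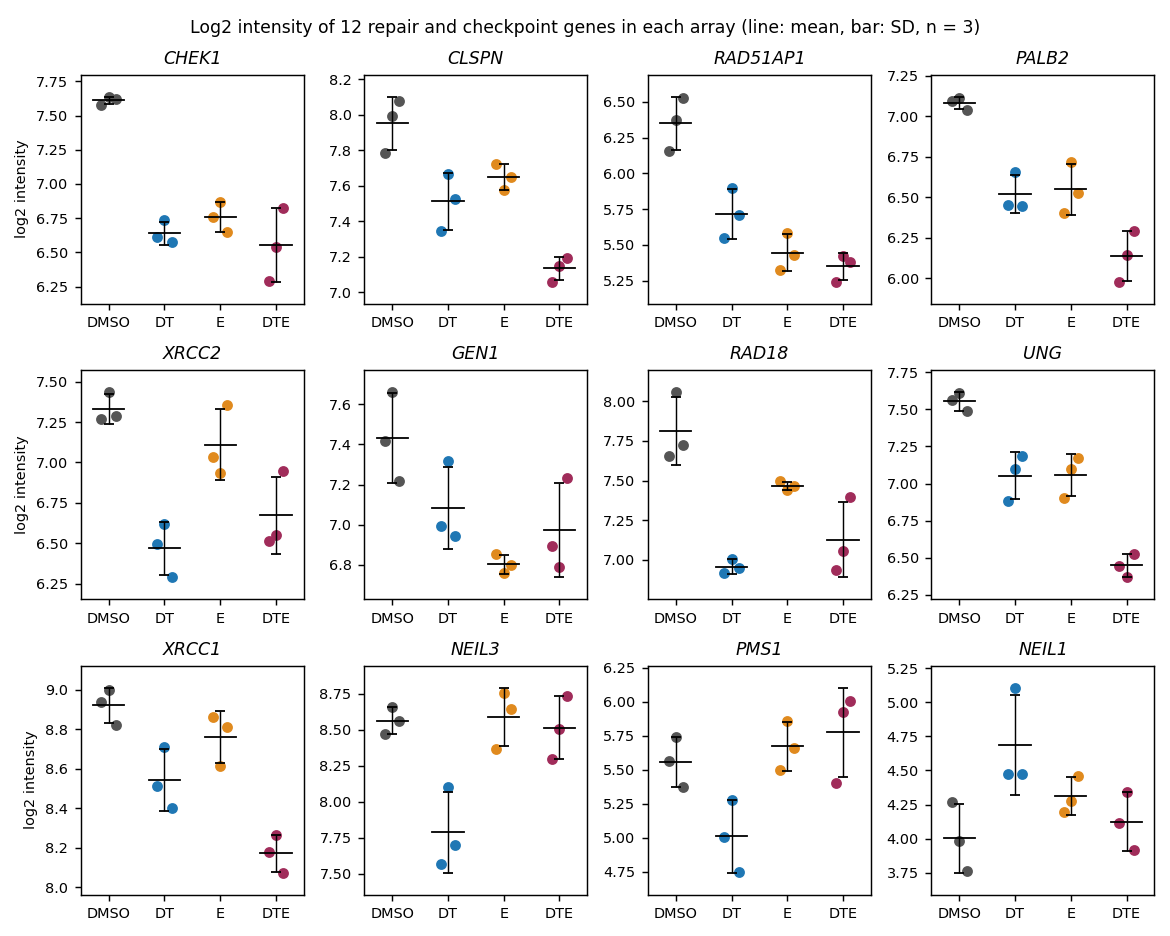
Log2 intensity of 12 repair and checkpoint genes in each of the 12 arrays, by treatment group (points: arrays; line and bar: mean and SD, n = 3; each panel has its own axis). CHEK1 lies between 7.58 and 7.63 in DMSO and at or below 6.87 in every treated array, UNG and XRCC1 are lowest in DTE, and NEIL3 is low in DT alone.

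The upstream promoter sequences of 4 genes are shown because PALB2 and UNG were called lower by entinostat both alone and on top of DT, and RAD51AP1 and CHEK1 had the largest falls under entinostat alone, the latter pair being chosen after their values were seen. They are the 250 bases before each RefSeq transcript start (GRCh38.p14), written along the gene's strand, with matches to the searched motifs in capitals. PALB2 lies at chr16:23641311-23641560 on the minus strand, UNG at chr12:109097347-109097596, CHEK1 at chr11:125625979-125626228 and RAD51AP1 at chr12:4538640-4538889, these 3 on the plus strand.
PALB2: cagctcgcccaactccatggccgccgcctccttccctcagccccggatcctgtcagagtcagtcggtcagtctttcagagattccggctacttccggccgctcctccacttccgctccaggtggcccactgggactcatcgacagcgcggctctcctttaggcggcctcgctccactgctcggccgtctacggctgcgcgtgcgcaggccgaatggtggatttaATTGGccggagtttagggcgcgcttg
UNG: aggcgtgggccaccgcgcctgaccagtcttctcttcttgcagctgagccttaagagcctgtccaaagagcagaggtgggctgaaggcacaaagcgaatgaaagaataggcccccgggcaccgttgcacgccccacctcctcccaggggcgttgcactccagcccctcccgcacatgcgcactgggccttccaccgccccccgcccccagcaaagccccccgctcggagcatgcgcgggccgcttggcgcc
CHEK1: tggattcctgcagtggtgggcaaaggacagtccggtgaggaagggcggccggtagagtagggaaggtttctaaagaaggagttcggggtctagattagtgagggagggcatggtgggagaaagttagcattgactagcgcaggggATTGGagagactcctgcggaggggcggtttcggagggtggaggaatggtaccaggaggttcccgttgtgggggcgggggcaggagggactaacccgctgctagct
RAD51AP1: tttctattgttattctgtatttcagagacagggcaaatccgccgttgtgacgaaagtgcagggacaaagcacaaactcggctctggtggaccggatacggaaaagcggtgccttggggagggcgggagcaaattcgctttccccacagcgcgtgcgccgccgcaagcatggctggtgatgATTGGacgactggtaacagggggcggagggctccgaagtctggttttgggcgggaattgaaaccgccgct
The motifs were TTTNNCGC (E2F type), TTTGAA (cell cycle homology region) and CCAAT (NF-Y type), searched on both strands with overlaps allowed. Each of PALB2, CHEK1 and RAD51AP1 held 1 CCAAT match, on the opposite strand (read as ATTGG), beginning 26, 105 and 70 bases before the start, and UNG held none of the 3 motifs. Of the 45 members with a sequence of this length, 21 held CCAAT (46.7%, against 33.0% of 27305 promoters), 5 held TTTNNCGC (11.1%, against 5.93%) and 4 held TTTGAA (8.89%, against 13.6%). CHEK2P2, FANCD2OS, NBN, NEIL2, RAD54B, WEE1 and XRCC5 were not matched. A match is a description of letters and not a measured binding site.

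Of the 17 genes of double-strand break repair and homologous recombination, 11 fell in DT, 4 in E and 11 in DTE as deposited (64.7%, 23.5% and 64.7%, against 24.1%, 3.54% and 22.5% of all genes). RAD51B alone rose, in DTE (5.88%, against 9.64% of all genes). After quantile normalization 1, 6 and 7 fell (5.88%, 35.3% and 41.2%, against 7.86%, 8.45% and 14.2%). Under that scaling RAD51B rose in DT and DTE (5.88% in each, against 8.55% and 14.2%). RAD51AP1, which encodes a cofactor of the strand-exchange recombinase, fell most under entinostat. It read 6.16, 6.37 and 6.52 under DMSO, 5.55, 5.89 and 5.71 under DT, 5.33, 5.58 and 5.43 under E and 5.24, 5.43 and 5.38 under DTE. All 9 treated arrays lay below DMSO, and the E and DTE arrays overlapped. The change was -0.90 in E (SE 0.13, adjusted p = 8.4e-05; 1.87-fold lower) and -1.0 in DTE (SE 0.13, adjusted p = 1.5e-05), and both calls held after quantile normalization and without any 1 array. In DT it fell by 0.63 (adjusted p = 0.0015; -0.30 and not called after quantile normalization).

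PALB2, which encodes a bridging protein that brings the recombinase to breaks, was lower under each treatment and lowest with all 3 drugs. It read 7.09, 7.11 and 7.04 under DMSO, 6.45, 6.65 and 6.45 under DT, 6.4, 6.72 and 6.53 under E and 5.98, 6.14 and 6.29 under DTE. The DT and E arrays overlapped, and all 3 DTE arrays lay below both. It fell by 0.56 in DT (SE 0.12, adjusted p = 0.0024; -0.18 and not called after quantile normalization), by 0.53 in E (SE 0.12, adjusted p = 0.0056; -0.59) and by 0.94 in DTE (SE 0.12, adjusted p = 1.5e-05; -0.69). GEN1, a resolvase of recombination junctions, read 7.42, 7.66 and 7.22 under DMSO, 6.99, 7.32 and 6.94 under DT, 6.85, 6.76 and 6.80 under E and 6.89, 6.79 and 7.23 under DTE. Only in E did the 3 arrays lie wholly below DMSO; the fall there was 0.63 (SE 0.15, adjusted p = 0.0058; -0.69 after quantile normalization), and GEN1 was not called in DT (-0.35). Its fall in DTE (-0.46, adjusted p = 0.022) was lost after quantile normalization (-0.21) and without DMSO replicate 1 (-0.47), DMSO replicate 2 (-0.35), DTE replicate 1 (-0.42) or DTE replicate 2 (-0.37). RAD54L, a motor protein gene of strand exchange, read 5.99, 6.35 and 6.13 under DMSO, 5.61, 5.70 and 5.65 under DT, 5.8, 5.54 and 5.89 under E and 5.53, 5.47 and 5.53 under DTE. In DT it fell by 0.50 (adjusted p = 0.006), a call lost after quantile normalization (-0.18). It fell by 0.42 in E (adjusted p = 0.03), a call that held after quantile normalization (-0.51) but was lost without DMSO replicate 2 (-0.32), DMSO replicate 3 (-0.43), E replicate 1 (-0.45) or E replicate 2 (-0.31), and by 0.64 in DTE (adjusted p = 0.0007; -0.46).

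The paralogs of the recombinase did not move as one. XRCC2 read 7.27, 7.43 and 7.29 under DMSO, 6.5, 6.62 and 6.29 under DT, 7.03, 6.94 and 7.36 under E and 6.51, 6.55 and 6.95 under DTE. Its E arrays overlapped DMSO, and its DT and DTE arrays did not. It fell by 0.86 in DT (SE 0.15, adjusted p = 0.00026; -0.49 and called after quantile normalization) and by 0.66 in DTE (adjusted p = 0.0019; -0.40 and called), and stood at -0.22 in E (adjusted p = 0.36). After median centring XRCC2 was called lower in E as well as in DT and DTE. RAD51C read 6.47, 6.72 and 6.4 under DMSO, 5.95, 6.11 and 5.99 under DT, 6.63, 6.89 and 6.66 under E and 6.37, 6.43 and 6.89 under DTE, lowest in DT, where it fell by 0.51 (adjusted p = 0.012). That call was lost after quantile normalization (-0.17) and without DMSO replicate 2 (-0.42) or DT replicate 1 (-0.48). RAD51B read 3.63, 3.86 and 3.46 under DMSO, 3.80, 4.0 and 3.87 under DT, 3.94, 3.88 and 3.83 under E and 3.88, 4.07 and 4.11 under DTE. It rose by 0.37 in DTE (SE 0.13, adjusted p = 0.03; 0.37 after quantile normalization), a call lost without DMSO replicate 1 (0.36), DMSO replicate 3 (0.27), DTE replicate 2 (0.35) or DTE replicate 3 (0.32), and in DT it was called higher after quantile normalization (0.40) and median centring (0.44) and not as deposited (0.24). XRCC3 fell by 0.50 in DT and 0.58 in DTE (adjusted p = 0.0049 and 0.0012); after quantile normalization it was called lower in DTE (-0.53) and in E (-0.33, against -0.16 and no call as deposited) and not in DT (-0.27).

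MUS81 and EME1 encode the subunits of a nuclease that cuts recombination junctions, and both were lower with all 3 drugs. MUS81, the catalytic subunit, read 5.91, 5.83 and 5.91 under DMSO, 5.50, 5.73 and 5.40 under DT, 5.86, 5.78 and 6.04 under E and 5.32, 5.18 and 5.17 under DTE. It was lowest in DTE, a fall of 0.66 (SE 0.12, adjusted p = 0.0004; -0.51 after quantile normalization), and its fall in DT (-0.34, adjusted p = 0.043) was lost after quantile normalization (-0.05) and without DMSO replicate 1 (-0.33), DMSO replicate 2 (-0.37), DMSO replicate 3 (-0.33), DT replicate 1 (-0.32), DT replicate 3 (-0.27), E replicate 1 (-0.34) or DTE replicate 2 (-0.34). EME1 read 9.09, 9.29 and 8.99 under DMSO, 8.35, 8.58 and 8.59 under DT, 9.18, 9.17 and 9.16 under E and 8.61, 8.54 and 8.56 under DTE, so the arrays with dabrafenib and trametinib lay apart from those without. It fell by 0.62 in DT and 0.55 in DTE (adjusted p = 0.00074 and 0.0013; -0.25 and -0.25 and not called after quantile normalization). A dimmer EME1 probe set changed by -0.15 in DT and -0.29 in DTE. It read 6.70, 6.38 and 6.30 under DMSO, 6.16, 6.55 and 6.24 under DT and 5.98, 5.98 and 6.55 under DTE. Its DT and DTE arrays overlapped DMSO, so it did not show the separation of the brighter probe set. Of the resection genes, NBN fell by 0.62 in DT and 0.66 in DTE (adjusted p = 0.0023 and 0.0011), of which the second alone was called after quantile normalization (-0.37), while its complex partner RAD50 stood at -0.29 and -0.09 without a call. In E NBN was called lower after median centring and not as deposited. BARD1, a ubiquitin ligase subunit, read 6.31, 6.61 and 6.39 under DMSO, 5.72, 5.92 and 5.86 under DT, 6.10, 6.26 and 6.19 under E and 5.82, 6.06 and 6.12 under DTE. BARD1 and EXO1, a resection exonuclease, fell in DT (-0.60 and -0.59, adjusted p = 0.0015 and 0.0015) and in DTE (-0.44 and -0.35, adjusted p = 0.012 and 0.037), and none of these 4 calls held after quantile normalization (-0.26, -0.22, -0.21 and -0.09). In DTE the BARD1 call was also lost without DMSO replicate 2 (-0.35) or DTE replicate 1 (-0.34) and the EXO1 call without DMSO replicate 1 (-0.37), DMSO replicate 2 (-0.30), DMSO replicate 3 (-0.37), DTE replicate 1 (-0.27) or DTE replicate 2 (-0.33), and BARD1 was called lower in E after quantile normalization (-0.33) and median centring and not as deposited (-0.25). As deposited RAD52 and RAD54B were called in no comparison (RAD52 at -0.08, -0.12 and -0.08 and RAD54B at -0.28, -0.13 and -0.35 in DT, E and DTE), and after median centring RAD54B was called lower in DTE (-0.32, adjusted p = 0.043). RAD51AP2 averaged 1.81 ± 0.04 under DMSO, below the lower quartile of genes in all 4 groups, and was not shown to lie above background; it was called in DTE against E after median centring only (0.44, adjusted p = 0.023).

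In crosslink repair, 3 of 13 listed genes were measured. As deposited 1 of the 3 was called, lower in DT (33.3%, against 24.1% of all genes). FAN1, a nuclease, averaged 6.47 ± 0.24 under DMSO, 5.93 ± 0.23 under DT, 6.36 ± 0.06 under E and 6.16 ± 0.11 under DTE. It fell by 0.54 in DT (adjusted p = 0.0085; -0.20 and not called after quantile normalization), a call lost without DMSO replicate 2 (-0.40) or DT replicate 3 (-0.44). BRIP1, a helicase, read 7.72, 8.08 and 7.57 under DMSO, 7.48, 7.69 and 7.39 under DT, 7.33, 7.66 and 7.5 under E and 7.06, 7.38 and 7.68 under DTE and passed in none as deposited (-0.27, -0.29 and -0.42 in DT, E and DTE; adjusted p = 0.25, 0.27 and 0.059). After median centring BRIP1 was called lower in E (-0.49, adjusted p = 0.016) and DTE (-0.39, adjusted p = 0.035). FANCD2OS, which was taken in by its symbol and not for a shown role in repair, lay below the lower quartile in every group.

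Of 3 end joining genes, 1 fell in DT and 2 in DTE as deposited, by 0.41 or less (33.3% and 66.7%, against 24.1% and 22.5% of all genes). After median centring XRCC5 and XRCC6 were called lower in E and in DTE (66.7% in each, against 16.3% and 23.1% of all genes), and 0 fell in DT (12% of all genes did). XRCC5 and XRCC6 encode the subunits of the Ku ring that caps broken ends. XRCC5 read 10.43, 10.59 and 10.46 under DMSO, 10.18, 10.32 and 10.31 under DT, 10.37, 10.37 and 10.41 under E and 10.08, 10.10 and 10.37 under DTE. XRCC6 read 9.17, 9.24 and 9.23 under DMSO, 8.77, 9.03 and 8.76 under DT, 9.07, 9.08 and 8.98 under E and 8.75, 8.75 and 8.91 under DTE. XRCC6 fell by 0.36 in DT and 0.41 in DTE and XRCC5 by 0.31 in DTE (adjusted p = 0.027, 0.01 and 0.047), and none of the 3 calls held after quantile normalization (0.00, -0.11 and -0.07). The XRCC6 call in DT was also lost without DMSO replicate 1 (-0.38), DMSO replicate 2 (-0.34), DMSO replicate 3 (-0.35), DT replicate 1 (-0.31) or DT replicate 3 (-0.31), and the XRCC5 call held in the 2 fits without DT replicate 2 or DTE replicate 3 and was lost in the other 10. Since XRCC6 has pseudogenes, its probe set may read more than the gene itself. XRCC4, the scaffold of the ligase step, read 6.42, 6.45 and 6.26 under DMSO, 6.04, 5.96 and 5.8 under DT, 6.60, 6.89 and 6.74 under E and 5.81, 5.83 and 6.62 under DTE, where DTE replicate 3 stood apart from the other two. As deposited its one call was in DTE against E (-0.65, adjusted p = 0.011), a call lost after quantile normalization (-0.36) and without DTE replicate 1 (-0.51) or DTE replicate 2 (-0.53).

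Base excision and single-strand break repair held both the largest fall with the 3 drugs and genes that moved in opposite directions. Of its 10 genes 5 fell and 1 rose in DT, 1 fell in E and 4 fell in DTE as deposited (50%, 10%, 10% and 40%, against 24.1%, 3.23%, 3.54% and 22.5% of all genes). After quantile normalization 1 fell and 1 rose in DT, 2 fell in E and 3 fell in DTE (10%, 10%, 20% and 30%, against 7.86%, 8.55%, 8.45% and 14.2%). UNG, the glycosylase that removes uracil from DNA, read 7.56, 7.61 and 7.49 under DMSO, 6.88, 7.09 and 7.18 under DT, 6.90, 7.10 and 7.17 under E and 6.44, 6.37 and 6.53 under DTE. The DT and E arrays overlapped each other below DMSO, and all 3 DTE arrays lay below both. The change was -0.50 in DT (SE 0.12, adjusted p = 0.0048; -0.13 and not called after quantile normalization), -0.49 in E (SE 0.12, adjusted p = 0.0079; -0.55) and -1.1 in DTE (SE 0.12, adjusted p = 2e-06; 2.15-fold lower; -0.85). The call in E was lost without E replicate 1 (-0.42).

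XRCC1, the scaffold of single-strand break repair, read 8.94, 9.0 and 8.82 under DMSO, 8.51, 8.71 and 8.40 under DT, 8.86, 8.61 and 8.81 under E and 8.18, 8.26 and 8.07 under DTE. All 3 DTE arrays were lower than every other array. It fell by 0.75 in DTE (SE 0.12, adjusted p = 0.00013; -0.45 after quantile normalization) and stood at -0.16 in E, and its fall in DT (-0.38, adjusted p = 0.027) was lost after quantile normalization (-0.02) and without DMSO replicate 1 (-0.37), DMSO replicate 2 (-0.34), DT replicate 1 (-0.36) or DT replicate 3 (-0.31). In E XRCC1 was called lower after median centring and not as deposited. OGG1, the glycosylase of oxidised guanine, read 4.99, 4.94 and 4.60 under DMSO, 4.59, 4.53 and 4.56 under DT, 4.72, 4.67 and 4.56 under E and 4.26, 4.34 and 4.21 under DTE. It fell by 0.58 in DTE (adjusted p = 0.0012; -0.55 after quantile normalization) and was called lower in E after quantile normalization (-0.39) and not as deposited (-0.20). PARP1, the break sensor targeted by PARP inhibitors, read 9.09, 9.21 and 8.89 under DMSO, 8.55, 8.87 and 8.64 under DT, 9.07, 9.11 and 9.10 under E and 8.66, 8.73 and 8.91 under DTE. Its fall of 0.38 in DT (adjusted p = 0.034) was lost after quantile normalization (-0.03) and without DMSO replicate 1 (-0.36), DMSO replicate 2 (-0.30), DT replicate 1 (-0.31) or DT replicate 3 (-0.35). As deposited PARP1 was not called in E (0.03) or DTE (-0.30), and after median centring it was called lower in DTE alone.

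The NEIL glycosylases, which remove oxidised bases, split under dabrafenib and trametinib. NEIL3 read 8.47, 8.66 and 8.56 under DMSO, 7.56, 8.10 and 7.70 under DT, 8.36, 8.76 and 8.65 under E and 8.30, 8.51 and 8.74 under DTE. The DT arrays alone lay apart, and the other 3 groups overlapped. NEIL3 fell by 0.77 in DT (SE 0.15, adjusted p = 0.0011; -0.40 and called after quantile normalization) and stood at 0.03 in E and -0.05 in DTE. NEIL1 read 4.27, 3.98 and 3.76 under DMSO, 4.47, 5.11 and 4.48 under DT, 4.19, 4.28 and 4.46 under E and 4.11, 4.34 and 3.91 under DTE, and it was the one member to rise in DT as deposited, by 0.68 (SE 0.17, adjusted p = 0.0068; 0.86). Its DT arrays lay above DMSO, while E and DTE overlapped DMSO. NEIL2 averaged 5.04 ± 0.08 under DMSO and 4.71 ± 0.07 under DT and was not called (-0.33, adjusted p = 0.066). TDG, which acts on mispaired thymine, read 6.70, 7.03 and 6.69 under DMSO, 6.25, 6.36 and 6.33 under DT, 6.65, 6.91 and 6.83 under E and 6.39, 6.38 and 6.73 under DTE. It fell by 0.49 in DT (adjusted p = 0.01; -0.12 and not called after quantile normalization), a call lost without DMSO replicate 2 (-0.38). MPG, the glycosylase of alkylated purines, fell by 0.37 in DTE (adjusted p = 0.029; -0.24 and not called after quantile normalization), a call lost without DMSO replicate 1 (-0.37), DMSO replicate 2 (-0.31), DTE replicate 1 (-0.38) or DTE replicate 3 (-0.30). PARP2 was called in no comparison (-0.25, -0.09 and -0.29 in DT, E and DTE).

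**Figure D3:**
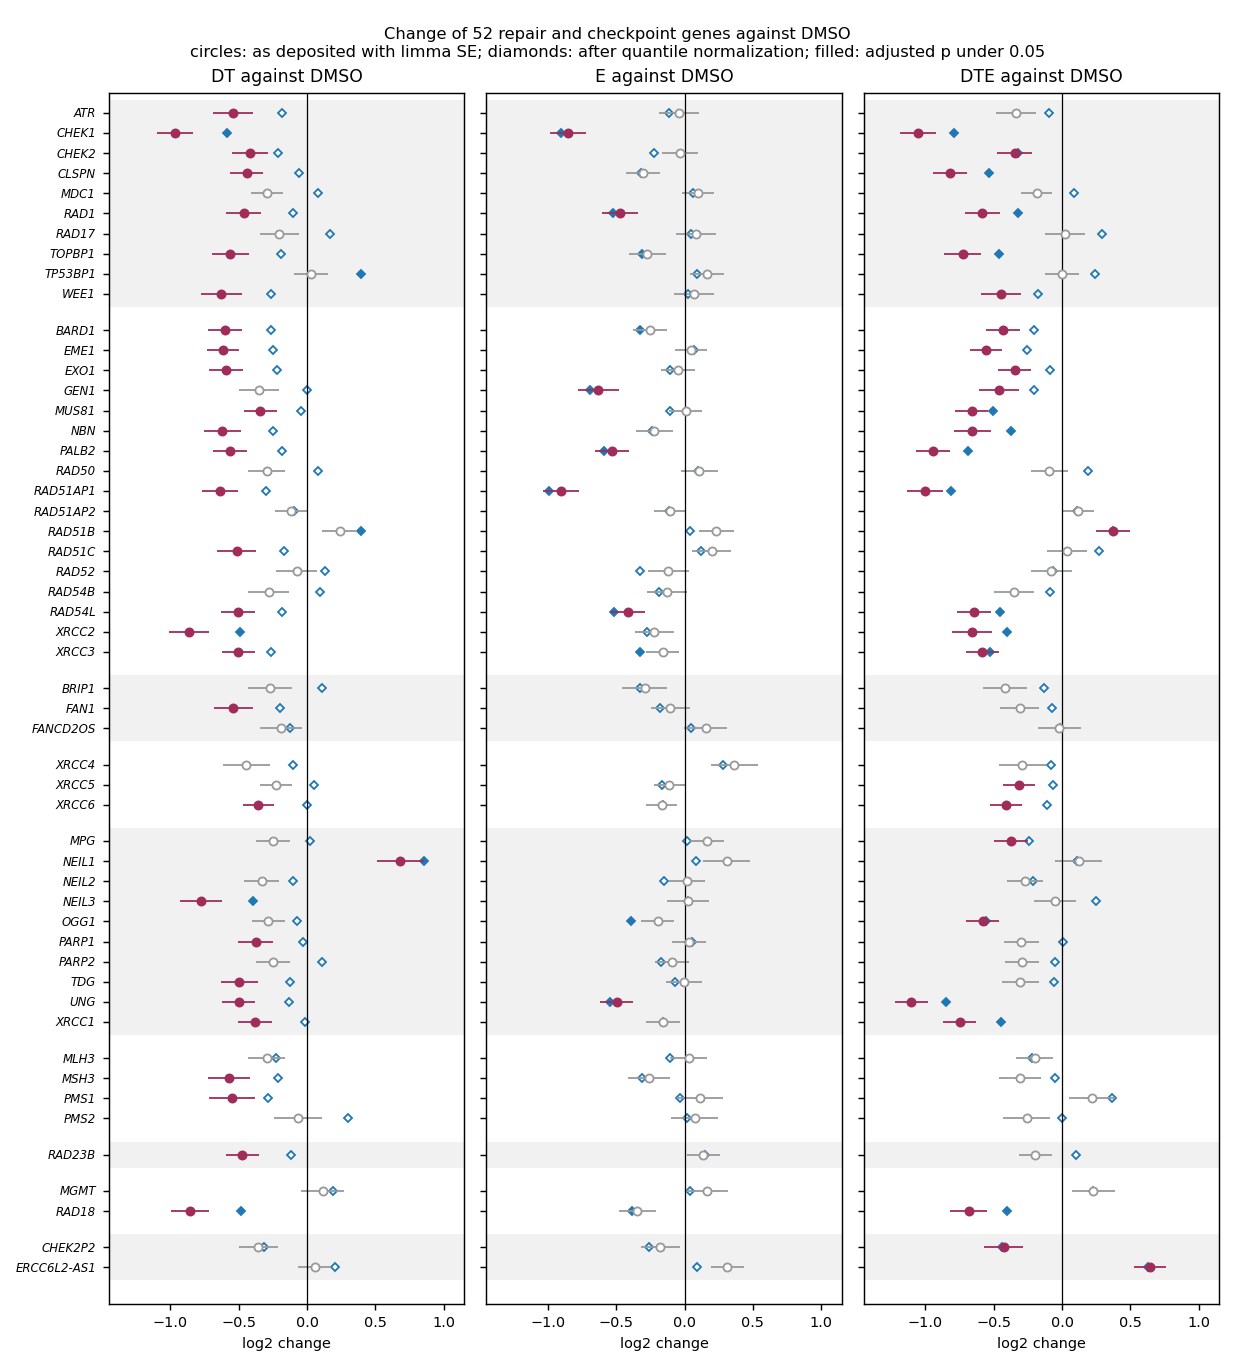
Log2 change of each of the 52 genes against DMSO in DT, E and DTE, ordered by role (shaded and plain bands: checkpoint, recombination, crosslink repair, end joining, base excision, mismatch repair, RAD23B, then MGMT with RAD18, then CHEK2P2 with ERCC6L2-AS1). Circles with limma SE are as deposited, diamonds are after quantile normalization and filled symbols passed an adjusted p under 0.05; in DT 30 circles but 7 diamonds are filled, and in E 7 circles and 13 diamonds.

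Of 4 mismatch repair genes, 2 fell in DT as deposited (50%, against 24.1% of all genes) and 0 did after quantile normalization (7.86% of all genes). PMS1, a MutL family gene, read 5.56, 5.74 and 5.37 under DMSO, 5.0, 5.28 and 4.75 under DT, 5.50, 5.86 and 5.66 under E and 5.40, 5.92 and 6.0 under DTE. It was lowest in DT, where it fell by 0.55 (adjusted p = 0.022), a call lost after quantile normalization (-0.29) and without DMSO replicate 1 (-0.54), DMSO replicate 2 (-0.46), DT replicate 1 (-0.54) or DT replicate 3 (-0.42). MSH3, which recognises insertion and deletion loops, fell by 0.57 in DT (adjusted p = 0.0096), a call lost after quantile normalization (-0.21) and without DT replicate 1 (-0.45). After median centring MSH3 was called lower in E (-0.46, adjusted p = 0.018) and not in DT (-0.37). PMS2, which has near-identical pseudogene copies that its probe set may also detect, stood at -0.07, 0.07 and -0.26 in DT, E and DTE, and MLH3 averaged 3.03 ± 0.12 under DMSO and lay below the lower quartile of genes in DT, E and DTE.

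RAD18, the ubiquitin ligase that marks PCNA at stalled forks, read 7.66, 8.06 and 7.72 under DMSO, 6.92, 7.01 and 6.95 under DT, 7.49, 7.44 and 7.46 under E and 6.94, 7.05 and 7.39 under DTE. All treated arrays lay below DMSO, those of E nearest to it. It fell by 0.86 in DT (SE 0.14, adjusted p = 0.00014; -0.49 and called after quantile normalization) and by 0.68 in DTE (adjusted p = 0.00079; -0.41 and called), and in E it stood at -0.35 (adjusted p = 0.098; -0.38 and called after quantile normalization). RAD23B, a damage recognition partner in nucleotide excision repair, read 9.39, 9.53 and 9.29 under DMSO, 8.85, 9.07 and 8.87 under DT, 9.42, 9.63 and 9.57 under E and 9.15, 9.14 and 9.34 under DTE. It fell by 0.47 in DT (adjusted p = 0.0071), a call lost after quantile normalization (-0.12). MGMT, which removes alkyl groups from guanine, read 2.86, 2.81 and 2.79 under DMSO, 2.92, 3.07 and 2.82 under DT, 2.73, 2.85 and 3.38 under E and 3.13, 2.79 and 3.23 under DTE. Its means under DMSO and E were below the lower quartile of genes, and it was called in no comparison. ERCC6L2-AS1, an antisense RNA gene that the symbol rule takes in, read 3.93, 4.05 and 3.87 under DMSO, 4.0, 3.98 and 4.04 under DT, 4.29, 4.33 and 4.16 under E and 4.5, 4.48 and 4.80 under DTE. The DTE arrays lay above all others, a rise of 0.64 (SE 0.12, adjusted p = 0.00045; 0.63). The pseudogene CHEK2P2, a near copy of part of CHEK2, lay below the lower quartile in all groups, and its call in DTE (-0.43, adjusted p = 0.028; -0.44) is of uncertain size and was lost without DMSO replicate 1 (-0.34), DMSO replicate 2 (-0.45) or DTE replicate 3 (-0.37).

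Adding entinostat to dabrafenib and trametinib was read from DTE against DT, which shares no array with E against DMSO. On top of DT, 5 of 52 members fell (9.62%, against 5.09% of all genes) and 4 rose (7.69%, against 13.8%). UNG fell by 0.60 (SE 0.12, adjusted p = 0.0013; -0.72), NEIL1 by 0.56 (adjusted p = 0.029; -0.75), PALB2 by 0.38 (adjusted p = 0.038; -0.51), CLSPN by 0.38 (adjusted p = 0.037; -0.48) and XRCC1 by 0.37 (adjusted p = 0.041; -0.43). PMS1 rose by 0.76 (SE 0.17, adjusted p = 0.0032; 0.65), NEIL3 by 0.73 (adjusted p = 0.0023; 0.65), ERCC6L2-AS1 by 0.59 (adjusted p = 0.0016; 0.42) and RAD51C by 0.55 (adjusted p = 0.01; 0.44). The genes that rose include PMS1, NEIL3 and RAD51C, each lowest in DT. Both readings use the same DT arrays, so these rises are no separate evidence of the falls in DT. After quantile normalization the same 4 rose (7.69%, against 12.2% of all genes) and 9 fell (17.3%, against 12%), the added ones being MUS81, OGG1, RAD51AP1 and TOPBP1. After median centring 4 rose and 9 fell (9.36% and 15.4% of all genes).

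Leaving out 1 array ended the call of 4 of the 5 genes that fell and 1 of the 4 that rose. The count of 5 falling was 3 without DMSO replicate 1, DT replicate 3 or E replicate 3, 2 without DTE replicate 2 or DTE replicate 3, and 1 without DT replicate 2 or DTE replicate 1. UNG kept its call in all 12 fits that left out 1 array, with changes from -0.69 to -0.54. NEIL1 lost it without DT replicate 2 (-0.35), DTE replicate 1 (-0.56) or DTE replicate 3 (-0.46), and CLSPN without DT replicate 2 (-0.30), DT replicate 3 (-0.37), DTE replicate 1 (-0.34), DTE replicate 2 (-0.39) or DTE replicate 3 (-0.41). PALB2 lost it in 7 of the fits, all but those without DMSO replicate 2, DMSO replicate 3, E replicate 1, E replicate 2 or DTE replicate 3, with changes from -0.42 to -0.30 in those 7. XRCC1 lost it in 7, all but those without DMSO replicate 2, DMSO replicate 3, DT replicate 3, E replicate 1 or E replicate 2, with changes from -0.42 to -0.28 in those 7. PMS1, NEIL3 and ERCC6L2-AS1 kept theirs in all 12, and RAD51C lost it without DTE replicate 3 (0.39).

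**Figure D4:**
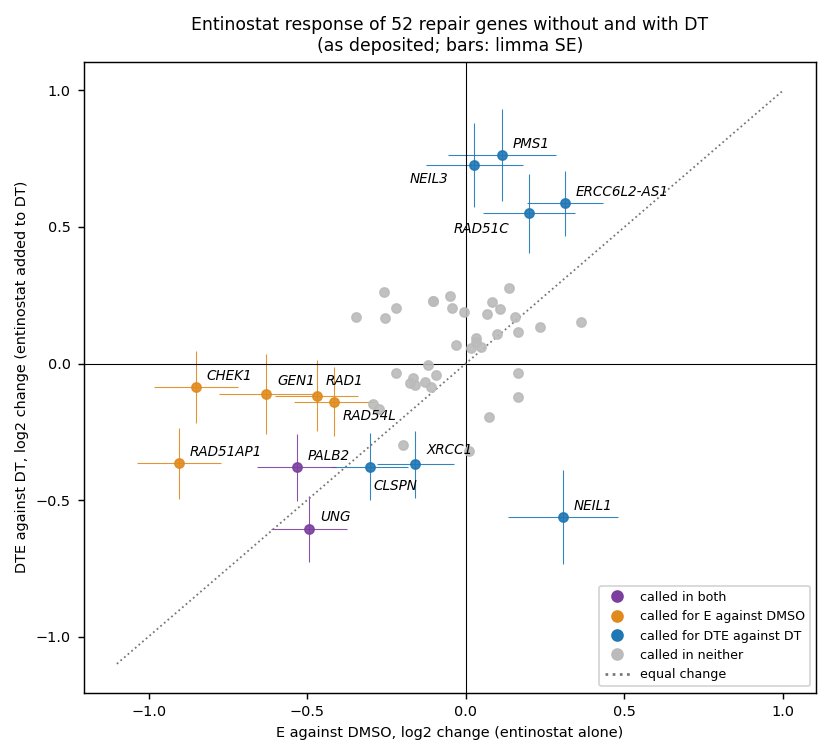
Log2 change of the 52 genes under entinostat alone (x axis, E against DMSO) and under entinostat added to dabrafenib and trametinib (y axis, DTE against DT), as deposited, with limma SE for the called genes; the comparisons share no array and the dotted line marks equal change. PALB2 and UNG were called lower in both, CHEK1 lies at -0.85 and -0.09, and NEIL1 at 0.31 and -0.56.

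PALB2 and UNG were called lower under entinostat in both settings, which is 28.6% of the 7 members lower in E and 40% of the 5 lower in DTE against DT. Over all genes the shares were 51.6% and 35.8%. After quantile normalization 6 were lower in both: CLSPN, OGG1, PALB2, RAD51AP1, TOPBP1 and UNG, or 46.2% of 13 and 66.7% of 9, where the shares over all genes were 56.6% and 39.8%. CHEK1 fell by 0.85 under entinostat alone and stood at -0.09 (SE 0.13, adjusted p = 0.73) when entinostat was added to DT. The difference between those responses, the departure of DTE from additivity on the log2 scale, was 0.76 for CHEK1 (SE 0.19, adjusted p = 0.056), just short of the threshold as deposited. It passed after quantile normalization (0.70, adjusted p = 0.023) and median centring (0.79, adjusted p = 0.025), as the 1 member called upward in each, where 1.19% and 1.1% of all genes were called upward and 0.96% and 0.734% downward. NEIL1 departed by -0.87 (SE 0.25, adjusted p = 0.11), NEIL3 by 0.70 (adjusted p = 0.15), PMS1 by 0.65 (adjusted p = 0.26), RAD51AP1 by 0.54 (adjusted p = 0.22) and GEN1 by 0.52 (adjusted p = 0.32), none past the threshold. For UNG and PALB2 it was -0.11 (SE 0.17) and 0.15 (SE 0.18). With limma 0 members passed as deposited (0.562% of all genes departed upward and 0.473% downward), and 9 did at an unadjusted p under 0.05 (17.3%, against 11.5% of all genes). Without DTE replicate 1, 1 member departed upward.

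Adding dabrafenib and trametinib to entinostat was read from DTE against E, which shares no array with DT against DMSO. In it 14 members fell (26.9%, against 22.4% of all genes) and 0 rose (2.08% of all genes; 1 at an unadjusted p under 0.05), so the share that fell is near that of all genes. Of these 14, 11 had also fallen in DT against DMSO, 78.6% of the 14 and 37.9% of the 29 there, where the shares over all genes were 59.7% and 55.6%. After quantile normalization 0 members fell in both (59.6% and 44.2% over all genes), and after median centring EME1 did (25% of 4 and 7.69% of 13, against 67.4% and 39%). As deposited the 11 included MUS81 (-0.67, adjusted p = 0.00075), UNG (-0.61, adjusted p = 0.0016) and EME1 (-0.60, adjusted p = 0.0014). The dimmer EME1 probe set stood at -0.12 in DTE against E. After quantile normalization MUS81 and EME1 alone fell (-0.40 and -0.32; 3.85% of members, against 5.84% of all genes), and ERCC6L2-AS1, GEN1 and RAD51B were called higher (0.53, 0.49 and 0.33; 5.77%, against 6.99%). After median centring 4 fell and 4 rose (6.91% and 6.71% of all genes). The count of 14 was 8 without E replicate 3 or DTE replicate 2 and 7 without DTE replicate 1.

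Of 92 other genes of repair and the checkpoint that the symbol rule does not take, 53 were measured. As deposited 24 fell in DT, 8 in E and 27 in DTE (45.3%, 15.1% and 50.9%, against 24.1%, 3.54% and 22.5% of all genes). In the same order 0, 2 and 1 rose (0%, 3.77% and 1.89%, against 3.23%, 12.5% and 9.64%). After quantile normalization 3, 11 and 15 fell (5.66%, 20.8% and 28.3%, against 7.86%, 8.45% and 14.2%), so the share in DT was below that of all genes. Under that scaling 1, 2 and 2 rose (1.89%, 3.77% and 3.77%, against 8.55%, 9.67% and 14.2%). CDC25A, the phosphatase that CHEK1 signalling removes, read 7.16, 7.06 and 7.05 under DMSO, 6.20, 6.39 and 6.18 under DT, 6.68, 6.38 and 6.5 under E and 5.68, 5.45 and 5.94 under DTE, so that DT and E each lay below DMSO and DTE below all. It fell by 0.83 in DT, 0.57 in E and 1.40 in DTE (adjusted p = 0.00016, 0.006 and 4.2e-07), and these calls held after quantile normalization (-0.46, -0.64 and -1.18). HROB, a recombination factor, fell by 0.55, 0.49 and 1.16 (adjusted p = 0.0045, 0.015 and 2.9e-06; the call in DT was lost after quantile normalization, -0.23), and RHNO1, which binds the checkpoint clamp, by 0.80 in E and 0.97 in DTE (adjusted p = 7.7e-05 and 5.1e-06; -0.91 and -0.85). SFR1, a recombination mediator, rose by 0.83 in E and 0.65 in DTE (adjusted p = 0.0009 and 0.0031; 0.65 and 0.76), and MAD2L2, a subunit of the shieldin complex, by 0.56 in E (adjusted p = 0.0015; 0.42).

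Genes of replication and mitosis fell beside the repair genes. Of 38 measured, 29 fell in DT, 12 in E, 35 in DTE and 11 in DTE against DT. These were 76.3%, 31.6%, 92.1% and 28.9%, against 24.1%, 3.54%, 22.5% and 5.09% of all genes. In each of these 0 rose, against 3.23%, 12.5%, 9.64% and 13.8% of all genes. The median changes of the 38 were -0.48, -0.29, -0.69 and -0.25. After quantile normalization 7, 17, 26 and 24 fell (18.4%, 44.7%, 68.4% and 63.2%, against 7.86%, 8.45%, 14.2% and 12%). Under that scaling 1 rose in DT (2.63%, against 8.55%). CDC45, a subunit of the replicative helicase, fell by 0.69 in DT, 0.65 in E and 1.23 in DTE (adjusted p = 0.00043, 0.0011 and 8e-07). The part that a change in cell division has in the repair genes' changes was not tested.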

How the data were processed

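The authors deposited 1 table of linear intensity values per probe set for the 12 arrays; RMA and the Transcriptome Analysis Console are named in the submitters' processing notes, without versions, and the genome build behind the probe sets was not given in any source used here. RMA includes a step that sets arrays to one distribution, yet the array medians over the 14580 genes kept here differ, for a reason not known. Medians over all 29396 probe sets are not given here, so the difference may belong to the genes kept. Quantile normalization and median centring were likewise run on the 14580 genes alone. Of 29396 probe sets, 14748 had 1 gene symbol, 14648 had none and 0 had several; where 156 genes had more than 1, the brightest probe set was kept, leaving 14580 genes. Members were the 52 genes whose symbols matched the family pattern. Log2 intensities were fitted with limma 3.58.1 in R 4.3.3 (4 group means, 8 residual degrees of freedom, empirical Bayes), with Benjamini-Hochberg adjustment over all genes in each of 6 comparisons and a threshold of 0.05. The number of arrays limits the precision. Genes given array by array were those called as deposited and after quantile normalization with groups that do not overlap (up to 6 each way per comparison) and a list of central repair genes; RAD54L, XRCC4 and CDC25A were added after their values were seen. The members and lists were chosen with earlier results of these data known. Alternatives were quantile normalization, median centring, leaving out dim genes, averaging probe sets, a trended robust prior, the replicate number as a block and leaving out each array. Replicate numbers were not used to pair the arrays in the main fit. The fit was tested on simulated data. Promoter sequences are from RefSeq (GRCh38.p14).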

Additional observations from a re-analysis of the deposited data

Results flagged for a closer look

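The response of CHEK1 to entinostat differed with and without dabrafenib and trametinib under 2 of the 3 scalings. The departure of the 3-drug group from additivity was 0.70 (SE 0.15, limma adjusted p = 0.023) after quantile normalization and 0.79 (SE 0.17, adjusted p = 0.025) after median centring, and 0.76 (SE 0.19, adjusted p = 0.056) as deposited.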

How the results depend on the processing

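Of the 87 calls over the 52 genes and 6 comparisons, 42 were also made after quantile normalization, 61 after median centring and 49 in all 12 fits that left out 1 array, and no value that passed changed its direction under any setting run. Quantile normalization gave 4 lower and 3 higher genes in DT against DMSO, 13 lower in E against DMSO, 9 lower in DTE against DT, 2 lower and 3 higher in DTE against E and 1 upward departure from additivity. Median centring gave 13 lower and 2 higher, 20 lower, 9 lower, 4 lower and 4 higher, and 1 upward departure in the same order. The cause was not tested. Without dim genes 0 rose in DTE against DMSO, and 1 departed upward and 1 downward, with fewer genes tested; with a trended robust prior 1 rose in DTE and 1 departed upward. Leaving out 1 array, the count lower ranged from 18 to 31 in DT, 5 to 7 in E, 17 to 27 in DTE, 1 to 5 in DTE against DT and 7 to 18 in DTE against E, and 0 departed downward. The count higher ranged from 1 to 1, 0 to 1, 1 to 2, 3 to 4 and 0 to 0, and 0 to 1 departed upward. Over same-numbered arrays the correlation of deviations from group means ranged from -0.10 to 0.17, with 3 of 18 pairs above 0.1. Since 12 of 18 were highest with their own number, a weak pairing is possible. The main fit did not pair the arrays. With the replicate number as a block, 29, 7, 28, 6 and 15 genes were lower and 1, 0, 2, 4 and 0 higher in the 5 comparisons, with 0 departures from additivity, and all 87 calls were kept.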
